A study of Mus musculus with 4 samples.

Results

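The genes described here mark granule neurons as they leave division and mature in the cerebellum. They are the nuclear factor one genes Nfia, Nfib and Nfix, and then Cntn2, Tubb3, Dcx, Reln, Cntn1, Etv1 and Cbln1. Features of the array were taken as theirs where the platform annotation gave the current symbol or a synonym. This gave 25 of the 38880 features, and all 10 genes were found among the 19875 genes measured. Of these features, 22 carried the symbol itself, 1 carried it in other letter case (NfiB) and 2 carried the synonym E030026I10Rik of Nfib.

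Both genotypes were C57Bl/6 mice and the tissue was dissected cerebellum at postnatal day 0. Each of 4 arrays carried RNA of Smarca5 conditional knockout (cKO) mice and RNA of wild-type mice, labelled with different dyes. Smarca5 encodes Snf2h, the ATPase of ISWI chromatin remodelling complexes. Replicates 2 and 4 were dye flips, with cKO in Cy3 instead of Cy5. There were 3 RNA samples of each genotype, so that replicates 1 and 4 shared a wild-type sample and replicates 3 and 4 a cKO sample. The Cre driver, the floxed allele carried by each group and the number of animals behind an RNA sample are not stated in the labels. Nothing in the labels says that the samples were separate animals, so a p-value here refers only to the spread between these samples and arrays. The limma fit used here draws that spread, for each gene or feature, toward a value estimated over all of them. Every SE, interval and p-value of the fit therefore reflects more than the gene's own spread.

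Granule neurons arise from progenitors in the external granule layer. After their last division they extend axons in the inner part of that layer, migrate inward past the Purkinje cells and form synapses in the internal granule layer. In the mouse most of them are born after birth, so the newborn cerebellum holds mainly progenitors and young granule neurons. Nuclear factor one (NFI) proteins are transcription factors that act in this sequence, and in the mouse they are needed for axon extension, migration and dendrite formation of granule neurons. The genes are ordered here from early to late as this general knowledge places them, not as the arrays do. Several of them, such as Tubb3 and Dcx, are expressed by other young neurons too.

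Values are given on the log2 scale as cKO over wild type, where both the log base and this direction are the likely reading of ratios deposited without either. The direction rests in part on 58 features whose ratios were larger than 3 in size on every array and changed sign with the dye. That would not happen if every column were Cy5 over Cy3 or the reverse. Such features cannot tell cKO over wild type from wild type over cKO, so the sign of every ratio below depends on the reading taken here. The Smarca5 feature itself lay below 0 on all arrays, with a mean of -0.93 ± 0.47 (SD, n = 4 arrays), while another feature now assigned to Smarca5 had 0.23 ± 0.21 (SD, n = 4 arrays). No intensities were used here, so neither the level of a gene nor the presence of a cell type can be read from these ratios. In RNA of whole tissue, fewer granule neurons and less RNA per neuron cannot be told apart.

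Replicate 1 stood apart in genes of the hindbrain behind the cerebellum. The 8 Hox genes examined had a median ratio of 3.12 on that array, and of -0.215, -0.575 and -0.335 on replicates 2 to 4. Of 12 markers of granule cell progenitors 11 had a fitted ratio below 0 (50.9% of all genes), with list medians between -0.415 and -0.145 on the 4 arrays. Of the 12, 3 were below 0 on every array (5.72% of all genes) and 2 had an unadjusted limma p under 0.05 (1.56% of all genes). Their mean on replicate 2 was 0.09, and limma called 0 of them, as it did of all genes. The part of either in the values below was not tested. The median of the 10 granule neuron genes was -0.04, and -0.07 without replicate 1.

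None of the 10 genes was called different between the genotypes by the test used. limma with Benjamini-Hochberg adjustment over all genes called 0 of them, where 0.0% of all 19875 genes were called. Smarca5 was not called either, at a fitted ratio of -0.42 ± 0.23 (SE, limma p 0.118). Nor was its feature below 0 on all arrays, at -0.98 ± 0.29 (SE, limma p 0.0165). Its other feature, above 0 on all arrays, had a fitted ratio of 0.15 ± 0.265 (SE). The test thus did not call the gene that the knockout targets, whose 2 features were opposite in sign. An unadjusted p under 0.05 was reached by 0 of the 10 genes and by 1.56% of all genes. That share is smaller than the threshold itself, so p-values of this fit ran large. With arrays taken as independent, 994 of all genes reached it, against 311 here, and again 0 of the 10. The fitted ratios ran from -0.37 for Cntn2 to 0.43 for Nfix, and 7 of 10 were below 0, against 50.9% of all genes. That count was 5 with the columns of the dye-flip arrays turned in sign, 5 without replicate 3 and 6 without replicate 2. Their median was -0.04, and that of all genes -0.004. The median size of the ratio, leaving its sign aside, was 0.12 for these genes and 0.17 for all genes. Of the 10 genes, 2 had the same sign on all 4 arrays, both below 0, where 11.7% of all genes had 1 sign and 5.72% lay below 0 throughout. No gene of the 10 lay above 0 on every array, which 5.93% of all genes did. Among the 25 features, 0 were called (0.0% of all features), 17 had a fitted ratio below 0 (50.8% of all features) and 4 had 1 sign on all arrays (10.9% of all features), of which 3 were below 0 (5.45%). For 8 of the 10 genes the 95% interval of the fitted ratio lay within 2-fold in either direction. The exceptions were Nfix, whose interval reached up to 1.10, and Cbln1, whose interval reached down to -1.05. A missed threshold does not show that the genotypes were alike, and these intervals hold only for the average over a gene's features. Some single features had wider ones, such as -2.17 to 0.62 for UT17623 and -1.07 to 2.63 for UT19867, both of Etv1. All these intervals come from a fit in which replicate 4 has no weight in the estimate and enters only the spread.

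**Figure D1:**
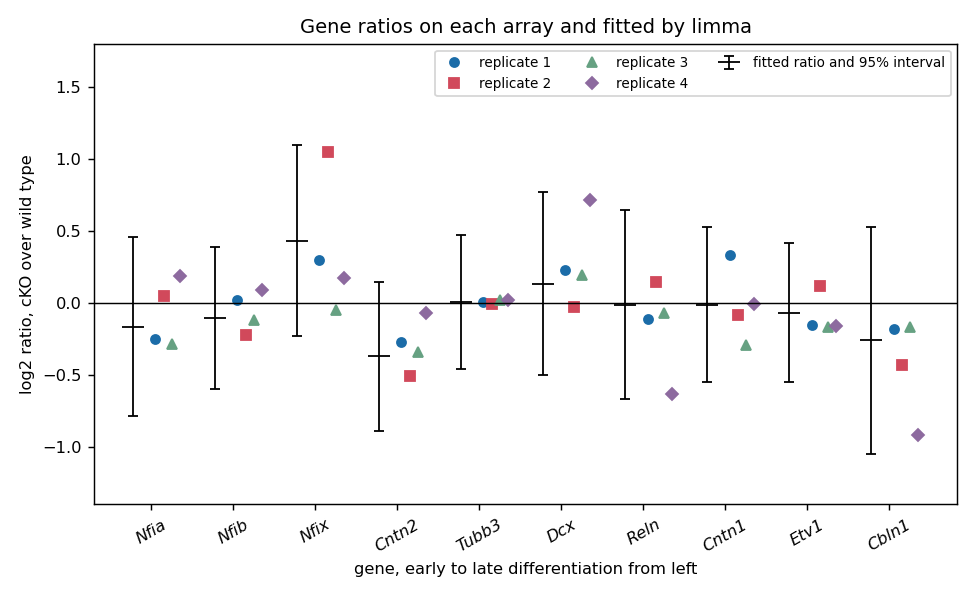
Each gene's log2 ratio of cKO over wild type (vertical axis) is shown for the 4 arrays, as the mean over its features, beside the ratio fitted by limma with its 95% interval. Genes run from early to late differentiation from left to right. All 10 intervals include 0, and Cntn2 and Cbln1 are the genes with every array below 0.

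None of the NFI factors was called, and their fitted ratios fell on both sides of 0. These proteins bind as dimers to TTGGC and GCCAA spaced by 5 bases, and also to either letter group alone. Nfia had ratios of -0.25, 0.05, -0.29 and 0.19 on replicates 1 to 4, with a fitted value of -0.16 ± 0.25 (SE, limma adjusted p 1). The arrays were divided evenly, with 2 below 0 and 2 above. Nfib had 0.02, -0.22, -0.12 and 0.09, also divided evenly, and a fitted value of -0.105 ± 0.20 (SE, adjusted p 1). Without the synonym and the feature in other letter case, Nfib had a fitted ratio of -0.21. Nfix, measured by 1 feature, had 0.30, 1.05, -0.05 and 0.17, and a fitted value of 0.43 ± 0.27 (SE, limma p 0.16, adjusted p 1). Its value came mainly from replicate 2, without which the fitted ratio was 0.13. The fourth member of the family, Nfic, had 0.04 ± 0.20 (SE).

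Nfia was measured by 3 features that differed. UT07883 read -0.86, -0.01, -0.27 and -0.44 and was below 0 on every array. UT05258 read -0.32, 0.12, 0.15 and -0.27, and UT35085 read 0.45, 0.03, -0.71 and 1.21. On each array at least 1 of the 3 features had the opposite sign to the others. Nfib had 5 features, of which UT35751 had the widest range, from -1.34 on replicate 3 to 0.82 on replicate 4. The other 4 features of Nfib lay between -0.45 and 0.52. NFI genes are alike in the part that encodes their DNA-binding domain, and the feature sequences were not used here, so cross-hybridisation between them was not tested.

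Cntn2 had the lowest ratio of the 10 genes in this fit, in which replicate 4 has no weight. Cbln1 was lower with arrays taken as independent, with a dye term and without replicate 1 or 3, and Nfix was the lowest with the dye-flip columns turned. Cntn2 encodes contactin 2 (TAG-1), an adhesion protein carried for a short time by the new axons of premigratory granule neurons. In mouse granule neurons NFI factors are known to control Cntn2. Its ratios were -0.27, -0.51, -0.34 and -0.07 on replicates 1 to 4. All 4 arrays were below 0, and replicate 4 was the closest to it. Its fitted ratio of -0.37 ± 0.21 (SE) corresponds to a level 1.29-fold lower in cKO (limma p 0.128, adjusted p 1). Its size exceeded that of 80.5% of all genes. Leaving out replicate 1, 2 or 3 gave values between -0.33 and -0.305, while leaving out replicate 4, which has no weight, cannot change the value. With the columns of the dye-flip arrays turned in sign the ratio was -0.03.

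The 3 features of Cntn2 gave close averages but did not follow each other across arrays. UT24776 read -0.10, -0.46, -0.08 and -0.59 and was below 0 throughout. UT28662 read 0.27, -0.83, -0.32 and -0.40, and UT19272 read -0.95, -0.23, -0.59 and 0.73. Each of these had 1 array above 0, replicate 1 for the former and replicate 4 for the latter. The means over 4 arrays ran only from -0.32 to -0.26, a narrower range than in all but 2.5% of the 1535 genes with as many features.

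Tubb3 and Dcx, which build and stabilise the microtubules of newly postmitotic and migrating neurons, both had 95% intervals that included 0. Tubb3, the neuronal class of beta tubulin, was measured by 1 feature that read 0.02, -0.01, 0.03 and 0.00. All 4 readings lay within 0.03 of 0, which held for 15 of the 38880 features on the array (0.04%). Its fitted ratio was 0.01 ± 0.19 (SE). The SD of its 4 centred values was 0.014, so this SE came mainly from the spread estimated over all genes. Whether that feature was bright, dim or saturated is not known without intensities.

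Dcx encodes doublecortin, a microtubule-associated protein of migrating neurons. It had gene ratios of 0.23, -0.03, 0.20 and 0.72 on replicates 1 to 4 and a fitted ratio of 0.13 ± 0.26 (SE, adjusted p 1). The ratio was 0.25 without replicate 1, 0.21 without replicate 2, 0.26 without replicate 3 and 0.28 with arrays taken as independent. Of its 4 features, UT15018 read 1.03, 0.50, 0.52 and 0.60 and was above 0 on every array. It was the only 1 of the 25 features to do so, against 5.46% of all features. It was also the only 1 with an unadjusted limma p under 0.05 (0.68 ± 0.24 SE, p 0.0343, adjusted p 1), a level reached by 1.34% of all features. Without replicate 1, 2 or 3 no feature of the 10 genes had such a p. The other features of Dcx did not share this reading. UT26527 read 0.02, 0.02, -0.05 and -0.08, and UT34992 read -0.04, 0.33, -0.05 and 0.39. UT01718 ran from -0.96 on replicate 2 to 1.87 on replicate 4. The value of Dcx on replicate 4, its highest, thus came mostly from that last feature.

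**Figure D2:**
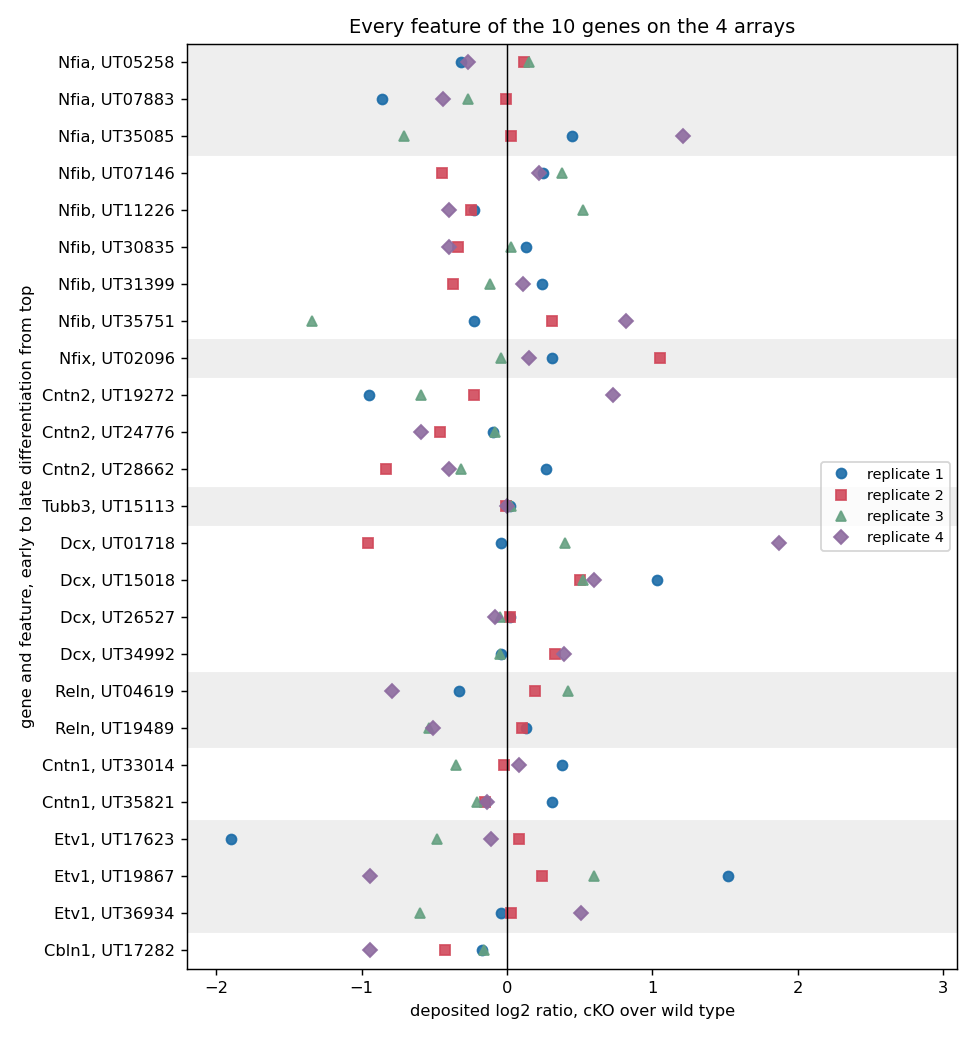
The deposited log2 ratio of cKO over wild type (horizontal axis) is shown for each of the 25 features, with 1 point per array and genes from early to late differentiation from the top. The Dcx feature UT15018 lies to the right of 0 on all arrays, 3 features (1 each of Nfia, Cntn2 and Cbln1) lie to the left on all arrays, and Tubb3 lies at 0.

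Reln and Cntn1 had fitted ratios close to 0. Reln encodes reelin, a glycoprotein secreted by cells of the granule lineage that places Purkinje cells in a layer. Its gene ratios were -0.11, 0.15, -0.07 and -0.63, with a fitted value of -0.01 ± 0.27 (SE). Replicate 4 was far below the others, and with all arrays weighted equally the mean was -0.17 ± 0.33 (SD, n = 4). On that array UT04619 read -0.79 and UT19489 -0.51, while on replicate 3 they read 0.42 and -0.54. Cntn1 encodes contactin 1 (F3), an adhesion protein of granule cell axons, and had 0.34, -0.09, -0.29 and -0.01 with a fitted value of -0.01 ± 0.22 (SE). Both of its features were highest on replicate 1, at 0.38 and 0.31, and lowest on replicate 3, at -0.35 and -0.21.

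Etv1 and Cbln1 stand for the late end of the sequence. Etv1, an ETS transcription factor of maturing granule neurons, had gene ratios of -0.15, 0.12, -0.17 and -0.16 and a fitted value of -0.07 ± 0.20 (SE, adjusted p 1). That small value is an average of features that disagreed. UT17623 read -1.90, 0.08, -0.48 and -0.11, whereas UT19867 read 1.52, 0.24, 0.60 and -0.94. The third feature, UT36934, read -0.04, 0.03, -0.60 and 0.51. On replicate 1 the first of these was the lowest of the 25 features and the second the highest.

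Cbln1 encodes a protein that granule cell axons secrete to organise their synapses on Purkinje cells. Its 1 feature read -0.17, -0.43, -0.16 and -0.94 on replicates 1 to 4, below 0 on each and lowest on replicate 4. Its fitted ratio of -0.26 ± 0.32 (SE) corresponds to a level 1.20-fold lower in cKO (limma p 0.447, adjusted p 1). With arrays taken as independent, so that replicate 4 counted in full, it was -0.425 (limma p 0.0597). It was -0.175 without replicate 2, about -0.50 without replicate 1 or 3, and 0.03 with the dye-flip columns turned. Its sign changed in that last setting only. Turning takes every column to have the same dye order, under which the features described above would not change sign with the dye. As the columns are read here, the mean of Cbln1 was -0.175 with cKO in Cy5 and -0.675 with cKO in Cy3.

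The order from early to late gave no trend that held. The 5 earlier genes, Nfia to Tubb3, had a median ratio of -0.105 and the 5 later genes, Dcx to Cbln1, of -0.01. The difference of -0.09 was not tested, since genes are not replicates, and it changed sign when the arrays were taken as independent or when replicate 1, 2 or 3 was left out. In this fit the genes furthest from 0 in either direction, Cntn2 and Nfix, both belong to the early group.

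Differences between features of 1 gene limit what a gene's average can show. Over 6704 genes with at least 2 features, the first 2 features of a gene correlated across genes at 0.031, 0.012, 0.053 and 0.033 on replicates 1 to 4 (Pearson, a description, since the features share an array and genes are not independent). Among the genes described here the range between feature means was 0.96 for Etv1, wider than in 94.7% of the genes with as many features, 0.69 for Dcx and 0.64 for Nfia. It was 0.25 for Nfib, 0.08 for Reln, 0.07 for Cntn1 and 0.06 for Cntn2.

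**Figure D3:**
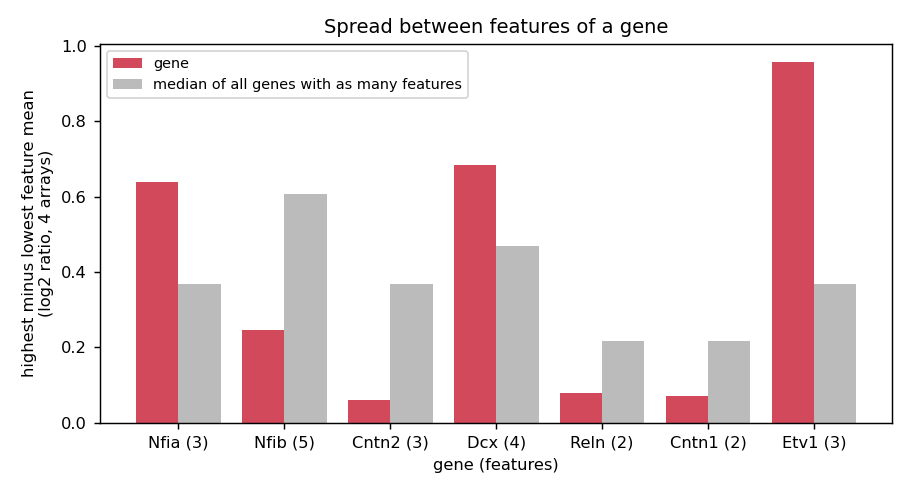
Bars give the highest minus the lowest feature mean over 4 arrays (log2 ratio) for the 7 genes with more than 1 feature, with the number of features in brackets, beside the median of that range over all genes with as many features. Etv1, Dcx and Nfia lie above that median, and Nfib, Cntn2, Reln and Cntn1 below it.

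Because NFI factors control Cntn2, the upstream regions of the 10 genes were searched for the NFI half-site TTGGC on both strands (GCCAA on the other strand), in RefSeq windows from 250 bases before to 50 after a start (GRCm38.p6). The windows table held 15 windows for 8 of the genes. A half-site lay in 7 of these windows, belonging to 5 genes, and in 46.7% of all 32851 windows. The whole palindrome, with 5 bases between its half-sites, was in 0 of the 15, and in 0.0365% of all windows. The half-sites of Cntn2, which NFI factors are known to control, and of Dcx, whose feature UT15018 lay above 0 on every array, are shown with their flanks on the gene's strand and the half-site in capitals.
Cntn2, 154 bases before the start (chr1:132543080-132543104, minus strand): cacggagctgGCCAAgcttgatgga
Cntn2, 23 bases before the start (chr1:132542949-132542973, minus strand): cggccgagcgTTGGCtgaggagccg
Dcx, 248 bases before the start (chrX:143933453-143933469, minus strand): atTTGGCctgctgagtc
Dcx, 210 bases before the start (chrX:143933415-143933439, minus strand): gaaggttttaGCCAAgtaaaattgc
Dcx, 197 bases before the start (chrX:143933402-143933426, minus strand): aagtaaaattGCCAAttttctaaga
All 3 half-sites of Dcx lay in 1 of its 2 windows, and its other window held 0. Half-sites also lay in windows of Nfix, Tubb3 and Etv1, which are not shown. Windows with 2 or more half-sites made up 14.1% of all windows, and those with 3 or more 3.4%. A match is a description of letters and not evidence of binding. A link between half-sites and ratios was not tested.

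Genes that work with these 10 were set beside them in 9 lists holding 70 further genes. limma called 0 of the 70, 2 had an unadjusted p under 0.05 (1.56% of all genes), 41 were below 0 (50.9% of all genes), and their median was -0.04. The same sign on all arrays was seen in 12.9% of them, against 11.7% of all genes.

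**Figure D4:**
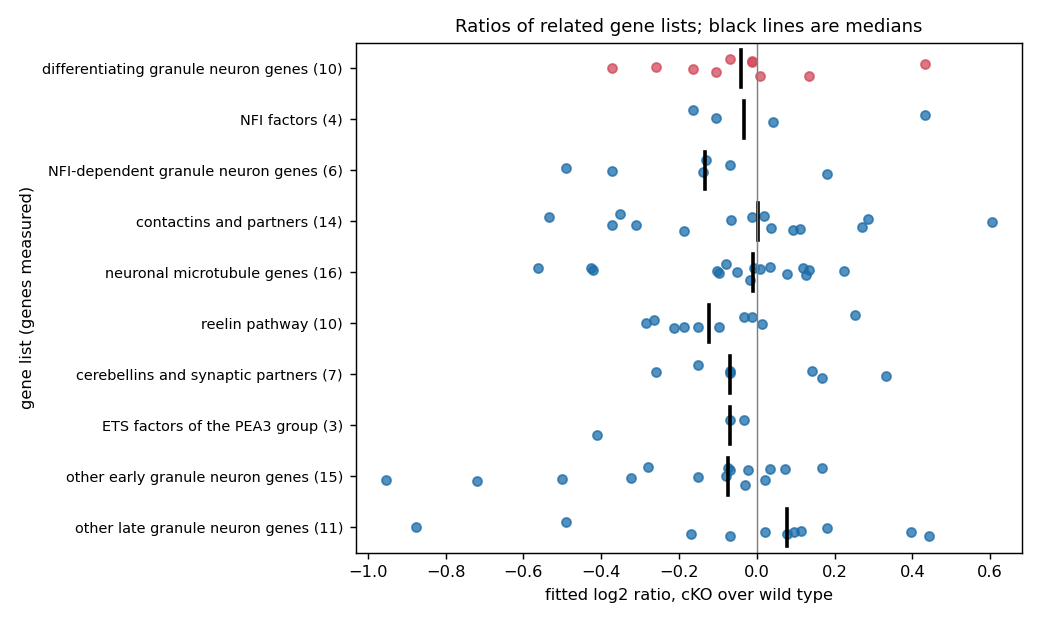
Each point is the fitted log2 ratio of cKO over wild type of 1 gene, grouped by list with the number of genes measured in brackets, and black lines are list medians. The medians lie between -0.13 and 0.08, and Neurod1, Slc17a7 and Nhlh1 are the genes furthest below 0.

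Both genes with an unadjusted p under 0.05 come from the lists of other granule neuron genes, so their lineage follows from the choice of lists. Neurod1, a transcription factor that granule neurons need to differentiate and survive, had -1.13, -0.78, -0.95 and -1.61 on replicates 1 to 4 (fitted -0.95 ± 0.28 SE, limma p 0.0144, adjusted p 1). Slc17a7, the vesicular glutamate transporter of mature granule cell axons, had -1.34, -0.38, -0.91 and -1.05 (fitted -0.88 ± 0.25 SE, limma p 0.0136, adjusted p 1). Each was measured by 1 feature that was below 0 on all arrays. Nhlh1, a transcription factor of newly postmitotic neurons, had -0.37, -0.86, -0.93 and -1.30 (fitted -0.72 ± 0.31 SE, adjusted p 1), and Neurod2 had a fitted ratio of -0.50 ± 0.31 (SE). The list of 15 other early granule neuron genes had 11 below 0 (50.9% of all genes) and a median of -0.07. The 11 measured other late genes had 4 below 0 (50.9% of all genes) and a median of 0.08, which was -0.13 without replicate 1. The early list's median was -0.115 without replicate 2. In the late list Grin2c, an NMDA receptor subunit of mature granule cells, had -0.49 ± 0.30 (SE) and Nrgn 0.44 ± 0.33 (SE).

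None of the genes listed here as dependent on NFI factors in mouse granule neurons was called. Of the 6 listed, which include Cntn2, Etv1 and Grin2c, 5 were below 0, against 50.9% of all genes, with a median of -0.13 that was -0.21 without replicate 2. Gabra6, the GABA-A receptor subunit of mature granule cells, had 0.18 ± 0.28 (SE), while Cdh2 had -0.14 and Efnb1 -0.13. Contactins and their partners were divided 7 and 7, where 50.9% of all genes were below 0, with a median of 0.00. Among them Cntn4 had -0.32, -0.52, -0.21 and -0.24, below 0 on every array as Cntn2 was, with a fitted ratio of -0.35 ± 0.20 (SE, adjusted p 1). Cntn5 had 0.61 ± 0.48 (SE), a value carried by replicate 1 at 1.88.

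Of 16 neuronal microtubule genes 9 were below 0 (50.9% of all genes) and the median was -0.01, or 0.04 without replicate 1. Map2 had -0.425 ± 0.35 (SE), Tubb2b -0.42 ± 0.40 and Ndel1, a partner of dynein in migration, 0.22 ± 0.27 (SE). In the reelin pathway 8 of 10 genes were below 0, against 50.9% of all genes. Their median was -0.12, and it was 0.01 with the dye-flip columns turned, -0.04 without replicate 1 and -0.05 with the median of a gene's features. Fyn and Src, kinases that phosphorylate the adaptor Dab1, had -0.29 ± 0.21 and -0.26 ± 0.34 (SE), while Dab1 itself had 0.25 ± 0.21 (SE). Among 7 measured cerebellins and synaptic partners 4 were below 0 (50.9% of all genes), and the list median of -0.07 was 0.18 without replicate 3. Cbln2 had 0.17 ± 0.21 and Cbln4 0.33 ± 0.26 (SE), against -0.26 for Cbln1. The ETS relatives of Etv1 were Etv4 at -0.41 ± 0.27 (SE), below 0 on every array and lowest on replicate 1 at -1.0, and Etv5 at -0.03 ± 0.22 (SE).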

How the data were processed

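Cerebellar RNA of both genotypes was compared on 4 two-colour arrays. The values the authors deposited are log ratios of the channels for each feature, taken here to be log2. Per the labels' protocols, total RNA was isolated with Trizol and cDNA labelled with a dendrimer kit. How they were normalized is not given in the sources used here. Every column had a mean of 0 and medians were between -0.02 and 0.01. The log base is not stated.

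The platform annotation named 30457 of 38880 features. Of 21476 symbols, 13021 were current in RefSeq (GRCm38.p6) regardless of letter case, 8291 were replaced through a synonym of 1 gene and 164 were kept. The median of an array was subtracted from its values, and a gene's features were averaged. Values of single features are given as deposited, and their fits used centred values.

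Genes and, separately, features were fitted with limma 3.58.1 in R 4.3.3 (with data.table, version 1.17.8), with an intercept, a correlation of 0.5 between arrays sharing an RNA sample, and Benjamini-Hochberg adjustment over all of them at 0.05. This correlation was assumed, and it gives replicate 4 a weight of 0 in the estimate. Over all genes the ratios of replicates 1 and 4 correlated at 0.012 and those of replicates 3 and 4 at -0.044 (Pearson). The ratios of arrays sharing a sample thus did not show it. The other pairs of arrays lay between -0.088 and 0.048. In limma the variance of each gene or feature was moderated by empirical Bayes toward a value estimated over all of them. The fit was tested on data simulated from shared RNA samples with no further noise between arrays. That is the structure the fit assumes, so the simulation cannot show whether it holds for these arrays. Alternatives were independent arrays, dye-flip columns turned, a dye term, no centring, scaled arrays, symbols as given, feature medians, single features, and each array left out. The genes and lists were chosen with earlier results of these data known. All 10 genes and their features, Smarca5, and the 3 genes of lowest p in each list were to be named. Those of marker lists for other cell types are not given, and Nfic, Cdh2 and Efnb1 were added after their values were seen.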

Additional observations from a re-analysis of the deposited data

Results flagged for a closer look

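In each of 54 sets of 4 array values (the genes, their features and the list medians), the highest or lowest array was looked for whose gap to the nearest other array, as a share of the whole range, exceeded Dixon's 95% critical value for 4 values. This was met 4 times, where chance gives about 2.7. Etv1 read 0.12 on replicate 2 and from -0.17 to -0.15 elsewhere. The Cntn1 feature UT35821 read 0.31 on replicate 1, and the others between -0.21 and -0.14. The median of the Purkinje cell genes was -0.19 on replicate 1, against 0.04 to 0.07 on the others. The median of the caudal hindbrain Hox genes was 3.12 on replicate 1, with the others below 0.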

How the results depend on the processing

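No gene of the 10, no feature of theirs and no related gene was called under any setting run, and the count of called genes among all 19875 was 0 in each. Unadjusted p-values under 0.05 numbered 311 among all genes, 994 with independent arrays, 937 without replicate 4, 139 without replicate 2 and 620 when a dye term was fitted. The count of called features was 0, and 48 with the dye-flip columns turned. All of those 48 were features whose sign changed with the dye, and none belonged to the 10 genes. Genes with 1 sign on all arrays numbered 2, and 1 with columns turned, and 2 to 6 when an array was left out (3 arrays then being compared). Among single features the count was 4 of 25. The median of the earlier genes minus that of the later genes was -0.091. It was 0.035 with independent arrays and ranged from 0.04 to 0.114 when replicate 1, 2 or 3 was left out. Leaving out replicate 4, which has no weight, cannot change it. The sign of the fitted ratio changed with columns turned for Nfib (0.04), Nfix (-0.27), Cntn1 (0.04) and Cbln1 (0.03), without replicate 2 for Cntn1, and without replicate 3 for Cntn1 and Nfia. Of 99 list medians in other settings 10 moved by more than the spread between arrays. No paired analysis was possible because a replicate number names 1 array, whose ratio already pairs cKO with wild type. The precision is limited by the number of arrays, and dim features could not be filtered without intensities.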

Other observations

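The mean ratio over the arrays with cKO in Cy5 and the mean over those with cKO in Cy3 had the same sign in 8 of the 10 granule neuron genes, and in 47.7% of all genes. For Cntn2 these means were -0.305 and -0.29, for Cbln1 -0.175 and -0.675, and for Nfix 0.125 and 0.61. Nfia had -0.27 and 0.12, with opposite signs. These are descriptions of 2 arrays each and were not tested.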
